A study of Mus musculus with 6 samples.

Results

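The genes described here are the 8 E2F transcription factors E2f1 to E2f8 and the pocket protein genes Rbl1 and Rbl2, 10 genes of the 18193 measured. They were taken by gene symbol: a probe set had to carry exactly 1 gene symbol in the platform annotation, and of several per gene the one brightest on average over all arrays was taken. All 10 were found, with 22 probe sets in all. The samples were GFP-positive cells sorted from the marrow mononuclear cells of moribund C57BL/6 mice with N-myc-induced B-cell leukaemia, 3 Cdh1-deficient and 3 Cdh1-intact, with 1 array per mouse. Cdh1-deficient cells came from Mx1-Cre(+)/Cdh1f/f donors and Cdh1-intact cells from Mx1-Cre(-)/Cdh1f/f littermates, so the gene-trap allele was shared and the Cre transgene was not. Mx1-Cre is switched on by interferon, and donors of either genotype received the interferon inducer pIpC at 7 to 8 weeks of age. Donor marrow was taken 4 weeks after the last injection and 2 days after 5-fluorouracil at 150 mg/kg. N-myc came from the retroviral vector pMXs-IG. The Cdh1 of the study is the APC/C coactivator encoded by mouse Fzr1, and the comparison addressed how leukaemia cells differ in expression without it.

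E2F proteins bind promoters of genes needed for DNA synthesis and cell division, most of them as dimers with a DP protein. The pocket proteins p107 (Rbl1) and p130 (Rbl2) hold E2F proteins in repressive complexes until cyclin-dependent kinases phosphorylate them. E2f1, E2f2 and E2f3 encode activators, E2f4 and E2f5 encode factors that repress together with p107 and p130, E2f6 encodes a repressor that works without pocket proteins, and E2f7 and E2f8 encode atypical repressors that bind DNA without DP. Several E2F proteins are destroyed through the APC/C, a control of protein that arrays of transcripts do not read. Because Fzr1 itself acts on proteins, the values below concern transcript levels alone.

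Values are log2 levels after RMA, on which a difference of 1 is a factor of 2. Levels of different probe sets cannot be set against each other. Fzr1, measured by a single probe set on chromosome 10, lay at 8.10, 7.73 and 8.22 on the Cdh1-deficient arrays 1, 2 and 3 and at 8.92, 8.04 and 8.92 on the Cdh1-intact arrays, so the groups overlapped at Cdh1-intact array 2. The position of its probes against the trap is unknown here, so they check no label. Against the label of B-cell leukaemia, that array carried the lowest value of 8 of 9 B-cell markers and the highest of 7 of 9 T and NK cell markers. The mean level of the B-cell markers was 4.87 there against 8.72 to 9.46 on the other arrays, with Cd79b, a signalling chain of the B-cell receptor, at 4.35 and so close to the floor. The T and NK markers averaged 10.23 there. Cdh1-intact array 3 followed at 7.15, and the other arrays lay between 5.55 and 5.88. Cd2 had the highest mean of these markers and was high on all arrays. It read 8.88 to 9.74 on the Cdh1-deficient and 10.10 to 10.74 on the Cdh1-intact arrays. Zap70 and Cd8a varied by only 0.47 and 0.29 over the 6 arrays. Cd3d, a T-cell receptor chain named after its values were seen, read 5.09 to 5.41 on the Cdh1-deficient arrays and 6.10, 12.55 and 8.69 on the Cdh1-intact arrays. Cdh1-intact array 1 carried the highest value of 6 of 8 macrophage markers (mean 7.05, against 4.89 to 5.96) and of 5 of 8 erythroid markers (mean 7.13, against 5.59 to 6.40). Neutrophil markers were higher in Cdh1-deficient cells for 9 of 10 genes, with a median difference of 2.05 and none past the threshold. Their mean was 9.19, 11.09 and 10.01 on the Cdh1-deficient arrays and 10.02, 6.07 and 9.08 on the Cdh1-intact arrays, with the highest value of 10 of 10 markers on Cdh1-deficient array 2 and the lowest of 9 on Cdh1-intact array 2. Differences of members and medians of lists are therefore also given without either of Cdh1-intact arrays 1 and 2 where that moved them by over 1.5 times. Differences of single genes named from the lists are given over all 6 arrays only, and some rest on 1 of those arrays. In these bulk samples, fewer cells of a type and less RNA per cell cannot be told apart.

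None of the 10 genes passed the comparison of Cdh1-deficient against Cdh1-intact cells. By limma, 0 members had an adjusted p under 0.05, where the share over all genes was 0.00%, and the lowest adjusted p of any gene was 0.849. E2f5 and E2f8, 2 of the 10, had an unadjusted p under 0.05, as did 5.50% of all genes. With genes below the median level left out, 590 of 9097 genes and 1 member did. E2f5 and E2f8 were also the 2 members whose groups did not overlap, with all Cdh1-deficient arrays above all Cdh1-intact arrays. Of all genes, 6.65% showed that pattern, and its share among genes at or above the median level was not counted. Of the 10 differences 7 were above 0, or 6 with quantile normalization or median centring, where Rbl1 turned below 0. Leaving out Cdh1-intact array 1 left 5 of 10 above 0. Their median was 0.19, or 0.11 and 0.12 with those scalings and 0.12 where probe sets of a gene were averaged. Leaving out Cdh1-intact array 1 gave 0.07, array 2 of that group 0.35 and array 3 of it 0.33. Over all genes 50.9% of differences were above 0 with a median of 0.0034. Among the genes at or above the median level, where all 10 members lie, 62.53% were above 0 and the median was 0.09. These shares and medians over all genes hold for the deposited scaling and all 6 arrays. Median centring moves every difference by the same amount, and they were not recounted for it or for the other alternatives.

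**Figure D1:**
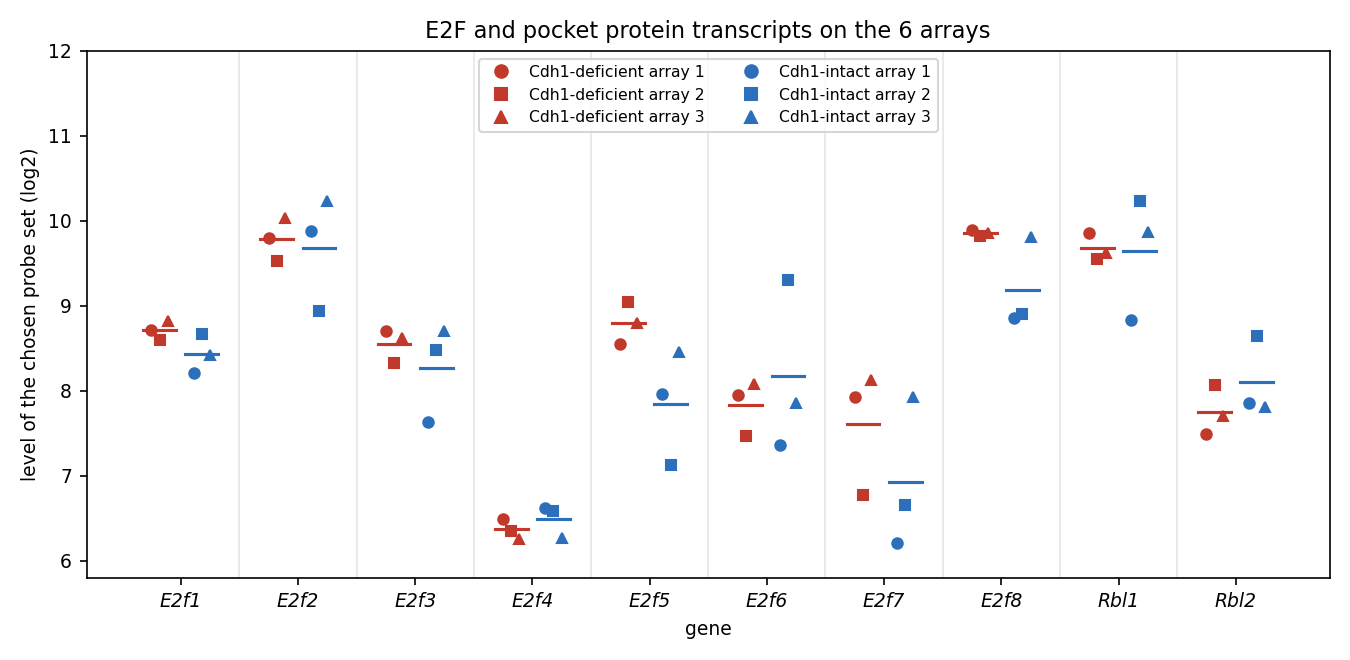
Log2 level of the chosen probe set (vertical axis) of each of the 10 genes (horizontal axis) on every array. Red points are the 3 Cdh1-deficient and blue points the 3 Cdh1-intact arrays, symbols give the replicate number and bars the group means; only E2f5 and E2f8 have groups that do not overlap, and heights of different genes cannot be compared.

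The spread lay mostly in the Cdh1-intact group. The SD was larger among the Cdh1-intact than among the Cdh1-deficient arrays for 10 of 10 members, as it was for 69.5% of all genes at or above the median level. Every member had its lowest or its highest value on Cdh1-intact array 1 or 2, a pattern whose share over all genes was not counted. Array 1 held the lowest value of 6 members (E2f1, E2f3, E2f6, E2f7, E2f8 and Rbl1), against 28.8% of all genes at or above the median level. Array 2 held the lowest value of E2f2 and E2f5, against 30.2% of those genes. It held the highest of E2f6, Rbl1 and Rbl2, against 21.6%.

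**Figure D2:**
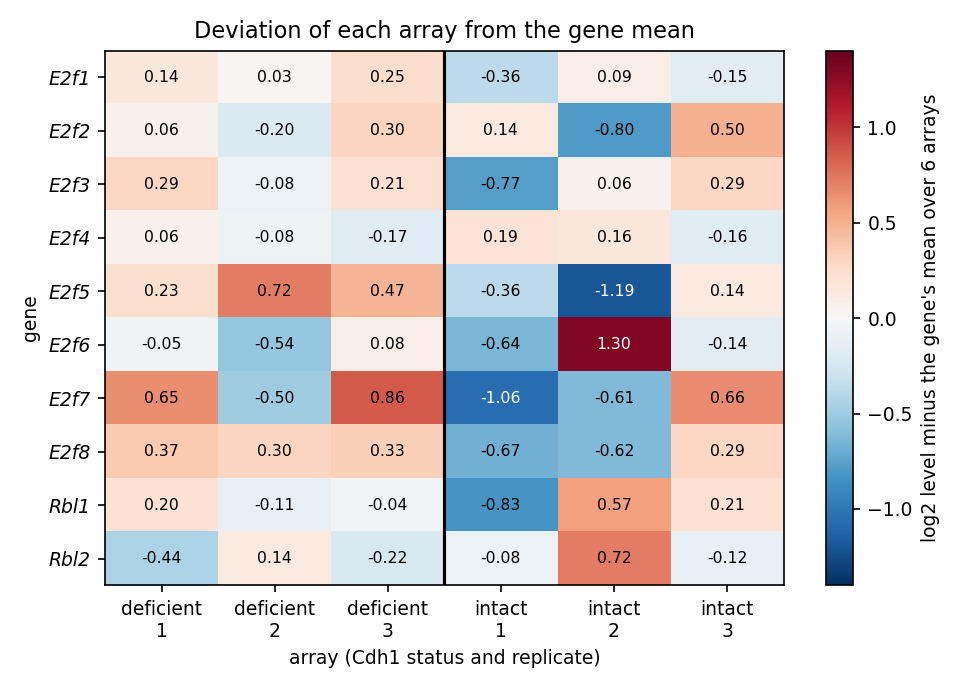
Log2 level of each gene on each array minus the mean of that gene over the 6 arrays, with rows for genes, columns for arrays (Cdh1-deficient left of the line, Cdh1-intact right of it) and the value printed in each cell. The strongest colours stand in the columns of Cdh1-intact arrays 1 and 2, such as 1.30 for E2f6 and −1.19 for E2f5 on array 2 and −1.06 for E2f7 on array 1.

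Among the activators, E2f1, whose protein drives entry into S phase, had levels of 8.71, 8.60 and 8.82 on the Cdh1-deficient arrays and 8.21, 8.66 and 8.42 on the Cdh1-intact arrays. The groups overlapped only because Cdh1-intact array 2 lay above Cdh1-deficient array 2. The difference was 0.28 (SE 0.15, 95% interval −0.08 to 0.64, limma adjusted p = 0.849). A further E2f1 probe set gave 0.35 (SE 0.22), and another, at a mean level of 4.95 and so near the floor, gave 0.02 (SE 0.12). Leaving out Cdh1-intact array 1 gave an E2f1 difference of 0.17, and leaving out array 2 of that group gave 0.40.

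E2f2, an activator known for its part in blood cell proliferation, lay at 9.79, 9.53 and 10.04 on the Cdh1-deficient arrays and at 9.88, 8.94 and 10.23 on the Cdh1-intact arrays. Cdh1-intact array 2 stood alone at the low end, and the other 5 arrays ran together without regard to group. The difference of 0.11 (SE 0.35, 95% interval −0.75 to 0.96, adjusted p = 0.96) turned to −0.27 (SE 0.20) without that array and to −0.02 (SE 0.41) without Cdh1-deficient array 3, and it was 0.20 without Cdh1-intact array 1. Its second probe set showed the same low array, at 8.29 against 9.15 to 9.89, and a difference of 0.15 (SE 0.41).

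E2f3, which encodes activator isoforms from separate start sites, read 8.70, 8.33 and 8.63 on the Cdh1-deficient arrays and 7.64, 8.48 and 8.70 on the Cdh1-intact arrays. Cdh1-intact array 1 was the single low value. The difference of 0.28 (SE 0.29, 95% interval −0.44 to 1.00, adjusted p = 0.869) became −0.03 (SE 0.16) without it. The other E2f3 probe set, at a mean level of 6.55, varied by 0.36 in all and differed by −0.08 (SE 0.12). It did not show the low value of Cdh1-intact array 1, which it read at 6.57.

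Of the factors that repress with p107 and p130, E2f4 varied least over the arrays. Its only probe set read 6.49, 6.36 and 6.26 on the Cdh1-deficient arrays and 6.62, 6.59 and 6.27 on the Cdh1-intact arrays, a range of 0.36 over all 6. The difference was −0.12 (SE 0.14, 95% interval −0.46 to 0.21, adjusted p = 0.88), and the interval gives the size of change these arrays could still hold. Leaving out Cdh1-intact array 1 gave −0.06 and array 2 of that group −0.07, while leaving out array 3 of it, or quantile normalization, gave −0.24.

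E2f5 had the largest difference of the 10. Its chosen probe set lay at 8.54, 9.04 and 8.79 on the Cdh1-deficient arrays and at 7.96, 7.12 and 8.46 on the Cdh1-intact arrays, so the groups stood apart by a narrow gap at Cdh1-intact array 3. The difference of 0.95 (SE 0.35, 95% interval 0.09 to 1.81), or 1.93-fold, had an unadjusted p of 0.0361 and missed the threshold (limma adjusted p = 0.849). Without Cdh1-intact array 2, the lowest, it was 0.59 (SE 0.22). Groups that stand apart keep their sign whichever array is left out, so leaving arrays out shows only how the size changes. The highest and lowest E2f5 levels lay on Cdh1-deficient array 2 and Cdh1-intact array 2, the arrays with the highest and lowest mean of the neutrophil markers, and the part of those cells in the value was not tested. A second E2f5 probe set also kept the groups apart, at 7.99, 8.42 and 8.07 on the Cdh1-deficient and 7.68, 7.26 and 7.78 on the Cdh1-intact arrays, with a difference of 0.59 (SE 0.19). The third did not: it read 7.78 to 7.79 on the Cdh1-deficient arrays and 8.46, 7.74 and 7.71 on the Cdh1-intact arrays, a difference of −0.18 (SE 0.22). The mean of the 3 probe sets differed by 0.45 (SE 0.20). E2f5 lies on chromosome 3, where 85.84% of the 445 other genes at or above the median level were higher in Cdh1-deficient cells, with a median difference of 0.31. On the remaining chromosomes of members that share ran between 44.74% on chromosome 13, which holds E2f3, and 75.84% on chromosome 4, which holds E2f2. The part of the chromosome in the E2f5 value was not tested.

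E2f6 was the member whose value depended most on a single array. The chosen probe set read 7.95, 7.47 and 8.08 on the Cdh1-deficient arrays and 7.36, 9.30 and 7.86 on the Cdh1-intact arrays. Cdh1-intact array 2 stood more than 1 log2 unit above all others, and Cdh1-intact array 1 was the lowest. The difference of −0.34 (SE 0.51, 95% interval −1.59 to 0.91, adjusted p = 0.908) turned to 0.22 (SE 0.25) without array 2 and was −0.75 without array 1 of that group. The other E2f6 probe set put array 2 at 7.64, within its range of 6.59 to 7.74, and differed by −0.45 (SE 0.27).

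Of the atypical repressors, E2f7 varied widely within each group. It read 7.92, 6.77 and 8.13 on the Cdh1-deficient arrays and 6.21, 6.65 and 7.93 on the Cdh1-intact arrays. Cdh1-deficient array 2 lay with the low Cdh1-intact arrays, and Cdh1-intact array 3 with the high Cdh1-deficient ones. The difference of 0.68 (SE 0.55, 95% interval −0.68 to 2.04, adjusted p = 0.85) ran between 0.32 and 1.18 when 1 array was left out. The within-group SD of 0.82 was at the 93.8th percentile of all genes, against the 37.4th for E2f4.

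E2f8, which acts together with E2f7 in cells of the mouse embryo and placenta, was the tightest of all within the Cdh1-deficient group. Its levels were 9.89, 9.82 and 9.85 on the Cdh1-deficient arrays and 8.85, 8.90 and 9.81 on the Cdh1-intact arrays. Cdh1-intact array 3 stood at the Cdh1-deficient level, only just below the lowest of them, and the other 2 Cdh1-intact arrays were about 1 log2 unit lower. The difference of 0.66 (SE 0.27, 95% interval 0.0011 to 1.33), or 1.58-fold, had an unadjusted p of 0.0497 and missed the threshold (limma adjusted p = 0.849). Without Cdh1-intact array 3 it was 0.97 (SE 0.10, adjusted p = 0.278), and without Cdh1-intact array 1 or 2 it was 0.50 and 0.52. A second probe set, at a mean level of 4.53 and so near the floor, differed by −0.06 (SE 0.12), and the mean of both differed by 0.30 (SE 0.13).

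**Figure D3:**
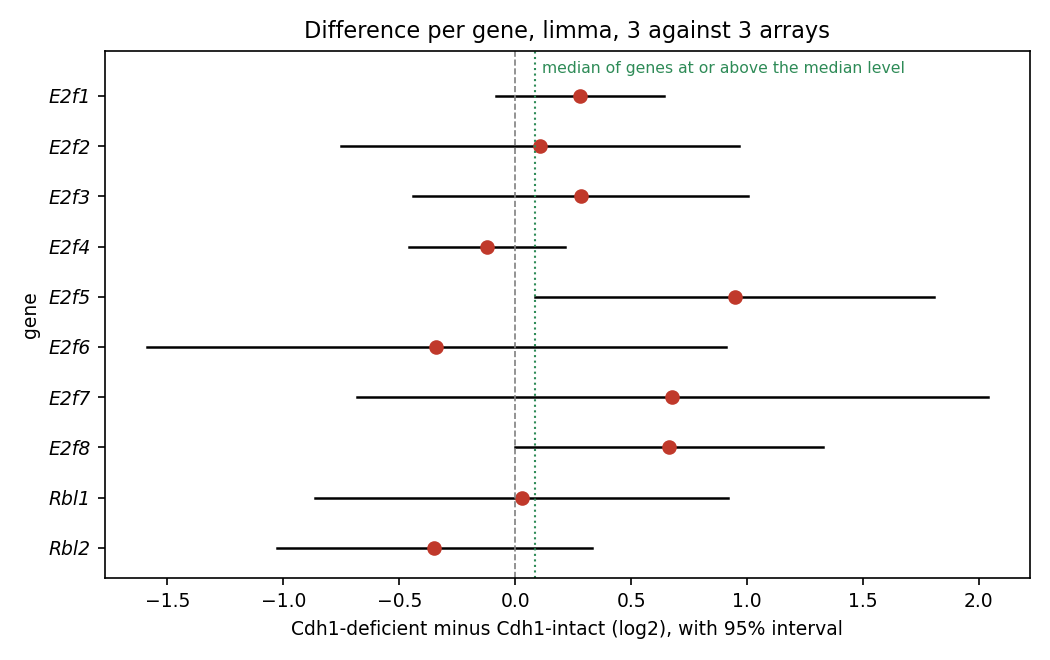
Cdh1-deficient minus Cdh1-intact difference of each gene (points, log2, horizontal axis) with its 95% interval from the limma fit over all genes (lines). The intervals of E2f5 (0.09 to 1.81) and E2f8 (0.0011 to 1.33) lie above 0, those of the other 8 genes span it, and the dotted line is the median of the genes at or above the median level.

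Of the pocket protein genes, Rbl1, which encodes p107 and is itself a textbook E2F target, read 9.86, 9.55 and 9.62 on the Cdh1-deficient arrays and 8.83, 10.23 and 9.87 on the Cdh1-intact arrays. The Cdh1-intact arrays held both the lowest and the highest value, with the Cdh1-deficient arrays between them. The difference was 0.03 (SE 0.36, 95% interval −0.86 to 0.92, adjusted p = 0.989), which became −0.38 (SE 0.17) when Cdh1-intact array 1 was left out and 0.32 when array 2 was. A second probe set differed by 0.06 (SE 0.21). It read 8.31, 8.61 and 8.82 on the Cdh1-deficient and 8.28, 8.39 and 8.88 on the Cdh1-intact arrays. There Cdh1-intact array 1 lay close to Cdh1-deficient array 1, and Cdh1-intact array 2 was not the highest. The remaining 2 probe sets lay near the floor at means of 4.15 and 3.79.

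Rbl2, which encodes p130, the pocket protein of resting cells, lay at 7.49, 8.07 and 7.71 on the Cdh1-deficient arrays and at 7.85, 8.65 and 7.81 on the Cdh1-intact arrays. The groups overlapped at Cdh1-deficient array 2. The difference of −0.35 (SE 0.28, 95% interval −1.03 to 0.33, adjusted p = 0.849) was −0.08 without Cdh1-intact array 2. Its other probe set ran the same way, with 5.51, 5.77 and 5.34 on the Cdh1-deficient and 5.84, 6.57 and 5.70 on the Cdh1-intact arrays and a difference of −0.50 (SE 0.26).

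**Figure D4:**
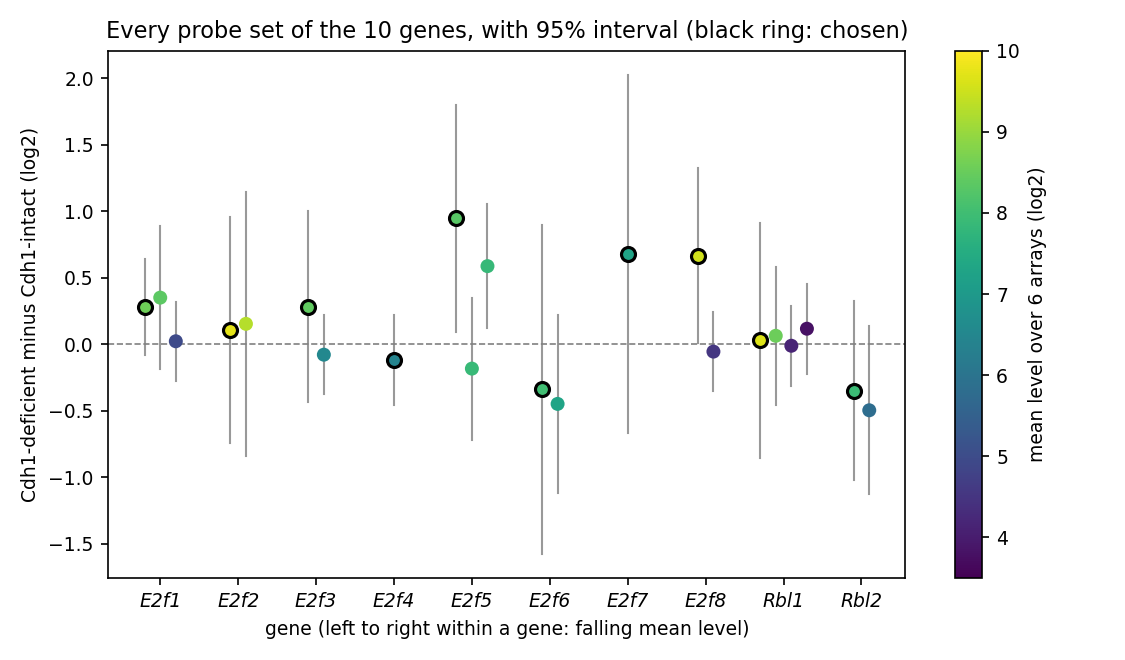
Cdh1-deficient minus Cdh1-intact difference (log2, vertical axis) of all 22 probe sets of the 10 genes with 95% intervals, coloured by the mean level over 6 arrays and ringed in black where chosen. Probe sets of E2f5 disagree in sign (0.95, 0.59 and −0.18), both of Rbl2 and both of E2f6 lie below 0, and the darkest points, near the floor, lie close to 0.

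Profiles over the 6 arrays were compared after each gene was centred on its own mean, by the root mean square (RMS) difference in log2 units. Of the 45 pairs of members, E2f3 and Rbl1 were the closest, at 0.24, where the RMS deviation from the mean was 0.37 for E2f3 and 0.43 for Rbl1. Their chosen probe sets shared the low value of Cdh1-intact array 1, which further probe sets of both genes did not set apart. Against 4099 genes with a range of at least 1, the profile of E2f6 was nearest to those of Ssbp3 (0.04), Klhl23 (0.12) and Stk26 (0.13). Ssbp3, on chromosome 4, read 8.03, 7.46 and 8.11 on the Cdh1-deficient arrays and 7.46, 9.40 and 7.87 on the Cdh1-intact arrays, with Cdh1-intact array 2 again the highest. The profile of E2f7 was nearest to those of Zfp58 (0.17), Krt36 (0.20) and Zfyve21 (0.22), all low on Cdh1-intact arrays 1 and 2 and on Cdh1-deficient array 2. Klhl23, Krt36 and Zfp58 reached down to 4.35, 4.28 and 4.91, near the floor. The nearest genes were picked out of 4099 on 6 values each, and how close a match such a search gives by itself was not tested.

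E2F sites in the promoters of E2F and pocket protein genes are a textbook case of a family that acts on its own members. RefSeq promoter windows of assembly GRCm38.p6, from 250 bases before to 50 after a transcript start, were at hand for 8 of the 10 members. They were searched on both strands for the E2F-type words TTTCGCGC, TTTGGCGC and TTTCCCGC and for TTTGAA, the word of the cell cycle genes homology region bound by MuvB, and no 2 matches overlapped. At least 1 E2F-type word was found in windows of 4 members, against 1.84% of the 32851 windows of all genes. E2f2 and E2f3 each had a further window, so counts of members and shares of windows, here and below, are unlike measures. The 4 windows are shown because they hold these words. Sequences run 5′ to 3′ on the strand of the gene, and capitals mark the words found, which read GCGGGAAA where TTTCCCGC lies on the other strand.
Rbl1, chr2:157204485-157204784, minus strand: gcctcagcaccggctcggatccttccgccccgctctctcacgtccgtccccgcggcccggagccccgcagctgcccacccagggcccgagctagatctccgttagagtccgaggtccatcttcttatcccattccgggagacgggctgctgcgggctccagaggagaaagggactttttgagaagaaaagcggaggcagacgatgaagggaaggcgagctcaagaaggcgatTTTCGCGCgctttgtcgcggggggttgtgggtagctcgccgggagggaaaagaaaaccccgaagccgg
E2f3, chr13:29986014-29986313, minus strand: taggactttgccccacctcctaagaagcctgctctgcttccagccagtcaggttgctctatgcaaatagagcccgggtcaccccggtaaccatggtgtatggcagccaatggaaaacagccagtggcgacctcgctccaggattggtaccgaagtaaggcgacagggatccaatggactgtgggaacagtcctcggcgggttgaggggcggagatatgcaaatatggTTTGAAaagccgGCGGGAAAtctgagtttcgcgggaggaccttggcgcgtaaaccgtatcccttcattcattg
E2f2, chr4:136172024-136172323, plus strand: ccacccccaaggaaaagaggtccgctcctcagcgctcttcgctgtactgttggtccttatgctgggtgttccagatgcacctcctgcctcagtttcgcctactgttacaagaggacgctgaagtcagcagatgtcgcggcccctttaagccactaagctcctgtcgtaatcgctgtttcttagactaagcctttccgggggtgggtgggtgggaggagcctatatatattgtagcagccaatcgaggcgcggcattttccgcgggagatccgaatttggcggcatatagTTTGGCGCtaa
E2f7, chr10:110745189-110745488, plus strand: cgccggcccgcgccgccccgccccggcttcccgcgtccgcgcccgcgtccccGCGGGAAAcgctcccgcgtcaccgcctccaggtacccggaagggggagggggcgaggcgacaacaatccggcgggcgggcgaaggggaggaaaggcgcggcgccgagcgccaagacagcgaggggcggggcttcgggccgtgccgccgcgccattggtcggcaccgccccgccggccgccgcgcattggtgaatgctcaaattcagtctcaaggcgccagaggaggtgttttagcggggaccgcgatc

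Counted from the leftmost base of a match, in Rbl1 the word TTTCGCGC, held by 0.323% of all windows, began 18 bases before the start site. E2f2 held TTTGGCGC (0.514% of windows) beginning 39 bases after its start site. TTTCCCGC (1.07% of windows) stood in reverse in E2f3, 11 bases before the start, and in E2f7, 198 bases before it. TTTGAA was found in windows of E2f2, E2f3, E2f8 and Rbl2, against 17.9% of all windows, and in E2f3 it stood 23 bases before the start. For E2f2 it lay in a further window, not printed above, of a transcript that begins 8508 bases inside the annotated gene. The windows of E2f1 and E2f8 start from transcripts that begin 466 and 477 bases inside the annotated gene, so they do not cover its outer end. These matches are descriptions of letters and not of bound sites. None of the 4 genes with an E2F-type word passed the test, with differences of 0.03 for Rbl1, 0.28 for E2f3, 0.11 for E2f2 and 0.68 for E2f7.

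The pathway around the members was read from lists of textbook genes, and 0 of their genes passed the threshold. The counts and medians below stand beside all genes at or above the median level, of which 62.53% were higher with a median of 0.09. That share and that median were not recounted under median centring, which moves every difference alike, or under other alternatives. Genes were named by the smallest p of their list, a choice that favours groups that stand apart. Groups stood apart with Cdh1-deficient cells higher for 6.65% of all genes. Neither the share the other way nor the share among genes at or above the median level was counted. The G1/S targets of E2F, such as replication licensing factors and nucleotide enzymes, were higher in Cdh1-deficient cells for 29 of 39 genes measured, with a median difference of 0.11 beside 0.09 for all genes at or above the median level. Their mean level was 10.48, 10.33 and 10.48 on the Cdh1-deficient arrays and 9.93, 10.51 and 10.49 on the Cdh1-intact arrays. Cdh1-intact array 1 alone was low, as for the chosen probe sets of Rbl1 and E2f3. It carried the lowest value of 28 of the 39 genes, against 28.8% of all genes at or above the median level. The median was −0.09 without it and 0.03 with median centring, and dropping array 2 or 3 of that group gave 0.19 and 0.21. The macrophage and erythroid markers were highest on that array, and their part in these values was not tested.

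Ccna2, the cyclin of S and G2 phase on chromosome 3, had the smallest p of the G1/S targets. Its levels of 11.83, 12.24 and 12.23 on the Cdh1-deficient arrays were all above those of 11.54, 11.12 and 11.73 on the Cdh1-intact arrays, with a difference of 0.63 (SE 0.20, adjusted p = 0.849). Slbp, which binds histone mRNA, followed at 0.36 (SE 0.17). The lowest p among those below 0 belonged to Cdc25a, a phosphatase that activates Cdk2, at −0.22 (SE 0.16), and to Mcm5, a subunit of the replicative helicase, at −0.11 (SE 0.15).

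G2/M targets, which pocket proteins and MuvB repress in resting cells, were higher for 20 of 21 genes, against 62.53% of all genes at or above the median level. Their median was 0.24, or 0.10 without Cdh1-intact array 2, beside 0.09 for those genes over all 6 arrays. Cdh1-intact array 2 carried the lowest value of 12 of the 21, against 30.2% of those genes, and its list mean was the lowest of the 6. The other list means were 10.42, 10.45 and 10.50 on the Cdh1-deficient arrays and 10.16 and 10.44 on Cdh1-intact arrays 1 and 3, so the groups overlapped. Kif2c, a microtubule-depolymerizing kinesin, differed by 0.60 (SE 0.24), Mki67, the proliferation antigen, by 0.51 (SE 0.24) and Ccnb2, a mitotic cyclin, by −0.05 (SE 0.19).

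Of the 11 partners, 9 were higher with a median of 0.12, or 0.05 with median centring, 0.03 without Cdh1-intact array 1 and 0.21 when array 3 of that group was dropped. Lin54, the DNA-binding subunit of MuvB on chromosome 5, read 8.95, 9.52 and 9.19 on the Cdh1-deficient arrays, all above 8.58, 8.54 and 8.78 on the Cdh1-intact arrays, and differed by 0.58 (SE 0.17, adjusted p = 0.849). The MuvB histone chaperone Rbbp4 differed by 0.12 (SE 0.13) and the MuvB subunit Lin52 by −0.29 (SE 0.16). Foxm1, a factor that joins MuvB at G2/M genes, differed by −0.02 (SE 0.29).

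Cyclins and kinases that phosphorylate pocket proteins were higher for 7 of 8 genes, with a median of 0.18, or −0.01 without Cdh1-intact array 1 and 0.28 when array 3 of that group was dropped. Of the D-type cyclins, Ccnd1 and Ccnd2 stood far apart on the array that lacked B-cell markers, and Ccnd3 did not, at 8.60 to 8.89 on the Cdh1-deficient and 8.23 to 8.90 on the Cdh1-intact arrays. Ccnd1 lay at 10.58, 11.29 and 10.33 on the Cdh1-deficient arrays and at 11.02, 4.29 and 10.91 on the Cdh1-intact arrays. Ccnd2 read 7.67, 8.27 and 7.71 on the Cdh1-deficient arrays and 5.93, 11.44 and 9.04 on the Cdh1-intact arrays, so Cdh1-intact array 2 was lowest for Ccnd1 and highest for Ccnd2. Cdk6, a partner of these cyclins, differed by 0.88 (SE 0.73). Its lowest value, 8.11, lay on Cdh1-intact array 1, and the other arrays read 10.09 to 11.07.

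In the E2f6 complex, the Polycomb assembly that E2f6 directs to DNA, 4 of 9 measured genes were higher and 5 lower, with a median of −0.13, or −0.25 with quantile normalization, −0.20 with median centring and −0.07 without Cdh1-deficient array 1. Pcgf6, its defining Polycomb subunit, differed by 0.45 (SE 0.18), with the groups apart. Its chromatin-binding subunit Cbx3 differed by −0.42 (SE 0.14) and Yaf2, a binding partner of the Ring proteins, by −0.43 (SE 0.15), with the groups apart the other way. These genes were named for the smallest p of the list. Of all genes, 6.65% had groups apart with Cdh1-deficient cells higher, and the share the other way was not counted. The scaffold Mga differed by 0.42 (SE 0.31), with 7.59 on Cdh1-intact array 1 the only low value. Germline genes that E2f6 silences in mouse cells lay near the floor, with means over 4 measured genes of 3.41 to 3.52 on the Cdh1-deficient and 3.52 to 3.70 on the Cdh1-intact arrays. Stag3, a cohesin subunit of meiosis, differed by −0.24 (SE 0.17), the germline ATP carrier Slc25a31 by −0.14 (SE 0.10) and the alpha-tubulin gene Tuba3b by 0.01 (SE 0.13).

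Of 5 measured ubiquitin ligase subunits that act on E2F or its regulators, 4 were higher, with a median of 0.19. Dropping array 1 or 2 of the Cdh1-intact group gave 0.30 and 0.01, and dropping array 2 or 3 of the Cdh1-deficient group gave 0.33 and 0.09. The median was 0.04 with probe sets of shared targets left out and 0.12 with median centring. Skp2, the SCF receptor that targets E2f1 and p130, read 9.43, 9.34 and 9.15 on the Cdh1-deficient arrays and 8.11, 8.10 and 9.37 on the Cdh1-intact arrays, a difference of 0.78 (SE 0.36, adjusted p = 0.849). Ccnf, which encodes cyclin F, lay at 8.62, 8.09 and 8.84 on the Cdh1-deficient arrays and at 7.18, 7.24 and 8.51 on the Cdh1-intact arrays, a difference of 0.87 (SE 0.41). As with E2f8, Cdh1-intact arrays 1 and 2 were low and Cdh1-intact array 3 lay at the Cdh1-deficient level. Fzr1 was the gene of the list below 0, at −0.61 (SE 0.28, adjusted p = 0.849).

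**Figure D5:**
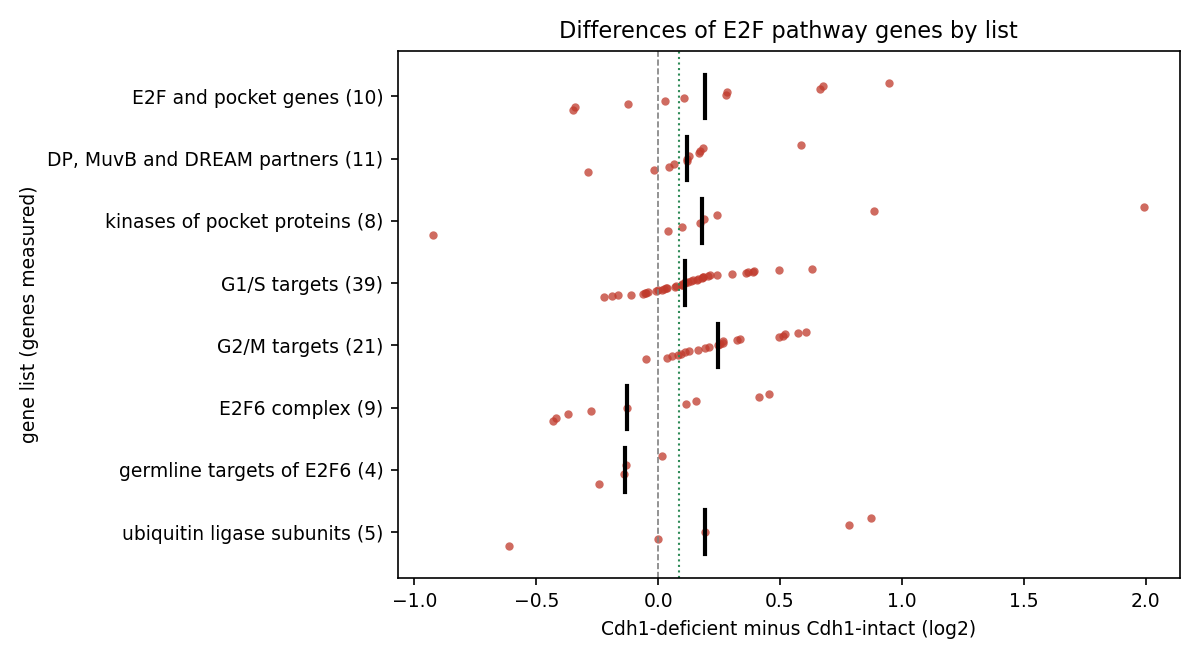
Cdh1-deficient minus Cdh1-intact difference (log2, horizontal axis) of every measured gene (points) of the 10 members and of 7 lists of pathway genes, with the number of genes in brackets and black bars for list medians. The dotted line is the median of all genes at or above the median level (0.09), and the widest points are Ccnd1 at 1.99 and Ccnd2 at −0.92. The lowest value of Ccnd1 (4.29) and the highest of Ccnd2 (11.44) both lay on Cdh1-intact array 2.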

How the data were processed

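Each of the 6 samples was hybridized to 1 one-colour array. The authors deposited 1 log2 value per probe set and array, and the submitters' processing notes name RMA without a version. RMA equalizes the array distributions, so a change of total RNA per cell cannot be seen. The median of an array was 5.07 to 5.13 and its lower quartile 3.75 to 3.83, and levels near 3 to 5 were read as near the floor, since no detection call was used. Of 45101 probe sets, 34945 carried 1 symbol in the platform annotation of 2016, giving 18193 genes without a filter on level. Probe sets with several symbols (932) or not listed (9211) were not used. The test was that of limma 3.58.1 (R 4.3.3), two-sided, with Benjamini-Hochberg adjustment over all genes and a threshold of 0.05, and the fit was tested on simulated data. Permuting 3 against 3 arrays cannot reach that threshold, and the number of arrays limits the precision. The members and lists were chosen with earlier results of these data known. The genes named from the lists were the 2 of smallest unadjusted p in each direction. Alternatives were other scalings, filters, probe set choices, variance models, the replicate number as a block and each array left out. Gene positions and promoters come from RefSeq, GRCm38.p6, and no source used here names a build for the arrays. List genes without a probe set of 1 symbol and protein sequences were not analysed here.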

Additional observations from a re-analysis of the deposited data

How the results depend on the processing

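Under the 15 alternatives, 0 genes and 0 members passed the threshold in any, with limma. In those tested with 1 value per gene, 442 to 1751 genes and 0 to 2 members had an unadjusted p under 0.05, and with all probe sets tested 3 of the 22 probe sets of members did. Same-numbered arrays did not deviate together (r = −0.14, 0.01 and 0.04 across genes), so the numbers were not taken as pairs. With the replicate number as a block 0 members were called, the unadjusted p was 0.0659 for E2f5 and 0.0587 for E2f8, and 975 genes had an unadjusted p under 0.05. The Rbl1 difference turned to −0.060 with quantile normalization and −0.046 with median centring. With 1 array left out, the difference ran between −0.27 and 0.38 for E2f2, −0.035 and 0.50 for E2f3, −0.75 and 0.22 for E2f6 and −0.38 and 0.32 for Rbl1. E2f5 ran between 0.59 and 1.25 and E2f8 between 0.50 and 0.97. Averaging its probe sets gave E2f8 a difference of 0.30. The median of the E2f6 complex list moved to −0.25 with quantile normalization. The cause was not tested for any of these. Genes below the median level included all 4 germline targets of E2f6, so that list had no value with them left out.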
